A study of Mus musculus with 7 samples.

Results

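The 10 genes described here make up the core of the hepcidin and iron circuit, namely Hamp, Hamp2, Bmp6, Erfe, Tfr2, Trf, Tfrc, Fth1, Ftl1 and Slc40a1. They were chosen by name from the 32285 genes counted, and all 10 were found by symbol in each of the 7 libraries. Each library holds single cells of 1 mouse liver sample, dissociated with collagenase and captured with the 10x Genomics 3′ chemistry, which counts unique molecular identifiers (UMIs) at the 3′ end of transcripts. GEO's labels give every library the same tissue and the same hepatoblastoma model and so form 0 groups. The study describes tumors of ABC-Myc mice (libraries NEJ634, NEJ687, NEJ709 and NEJ723) and healthy control livers (NEJ638, NEJ654 and NEJ677), but the labels do not carry this division, so each library is reported on its own and none was averaged or tested against another. In ABC-Myc mice of the C57BL/6J background, Cre driven by the albumin enhancer and promoter removes a stop cassette and lets the CAG promoter express human MYC, so the driver of the transgene is active in the hepatocyte lineage. The genotype and age of the mouse behind each library are not given in the labels, and the description text of NEJ709 names NEJ634.

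Hepcidin, the peptide made from Hamp, is secreted by hepatocytes and binds ferroportin, the iron exporter encoded by Slc40a1, so that macrophages and the gut release less iron into blood. Hepatocytes set Hamp transcription by reading transferrin-bound iron through Tfr2 and BMP ligands such as BMP6 from the sinusoidal endothelium, while erythroblasts secrete erythroferrone (Erfe), which lowers hepcidin when red cells are being made. Iron itself travels on transferrin (Trf), enters cells through the transferrin receptor (Tfrc) and is stored in ferritin shells of Fth1 and Ftl1 chains, and the fetal liver is at once a site of hepcidin production and of red cell formation.

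Cells were sorted into classes by clustering without the iron genes and naming clusters from marker genes. Of 70875 cells in 37 clusters, 26 clusters were named and 19610 cells stayed without a name. Library totals ran from 40214395 to 132485391 UMIs. Pairs of libraries shared 11 to 191 cell barcodes, with a median of 37 over the 21 pairs, and these cells were left out. The sharing was uneven. NEJ654 and NEJ677 shared 191, NEJ709 and NEJ723 shared 117, and NEJ687 shared 115 with NEJ654 and 105 with NEJ677. NEJ638 shared at most 44 with any library. Whether differences between libraries follow this pattern was not tested. In the 4 classes used here, 14 or 15 of 15 hepatocyte markers, 14 of 14 erythroid markers, 13 of 13 macrophage markers and 14 of 14 endothelial markers were at least 2-fold above the other named cells. The same markers had named the clusters, so high counts follow from the naming and do not test the classes. At naming, hepatocyte-lineage-like clusters had from 10 of 15 markers up (cluster 9) to 14 of 15 (cluster 15). Hepatocyte-lineage-like cells numbered 5739, 258, 322, 251 and 143 in NEJ634, NEJ687, NEJ638, NEJ654 and NEJ677, while NEJ709 and NEJ723 held 7 each, below the minimum of 20. Those of NEJ634 and NEJ687 lay mostly in cluster 6, led by H19, Igf2 and Igfbp2, with Alb at 4278 and 3202 UMIs per 1000000 (CPM) and Afp at 2414 and 1501 CPM. Those of NEJ638, NEJ654 and NEJ677 lay in cluster 15, led by Serpina3k, Cyp2e1 and Cyp2f2, with Alb from 40769 to 70180 CPM and Afp from 1.42 to 9.21 CPM. Macrophage-like cells were found in all 7 libraries, mostly in cluster 0 in NEJ634, cluster 4 in NEJ687, NEJ709 and NEJ723, and cluster 36 in NEJ638, NEJ654 and NEJ677. Endothelial-like cells were found in 6, mostly in cluster 12 in NEJ634, cluster 20 in NEJ638 and cluster 19 in the other 4, and NEJ709 had 11.

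Erythroid-like cells came from 3 unlike clusters. NEJ687 (2225 cells), NEJ723 (2601) and NEJ638 (71) drew them from cluster 18, led by histone genes, Hemgn and Rhd, and cluster 28, led by Tmcc2, Xpo7 and Slfn14, while NEJ654 and NEJ677 had 2 and 0 such cells. In NEJ709, 12598 of 12837 erythroid-like cells lay in cluster 22, led by mitochondrial transcripts with Tmcc2, and in NEJ634 97 of 248 did. Cluster 22 stood close to the limit for a name, with a marker score of 1.09 where 1 was needed, and 8 of 14 erythroid markers were 2-fold up. The erythroid-like profile of NEJ709 was estimated at 74.5% free RNA, against 2.49 to 11.01% in the other 4, so its values are given by cluster as well.

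All levels are CPM of summed UMIs of a class in 1 library, with exact Poisson 95% intervals. These cover counting error only and not the spread between cells. Because each UMI is a 3′ tag of 1 molecule, these levels are not divided by gene length. Whether introns were counted is not settled, so levels of different genes can be set beside each other only with that limit. Free RNA in each library was read from barcodes ranked 45000 to 90000 by UMIs, and its level is given beside the classes. Those barcodes held 210 to 952 UMIs in NEJ634, which overlaps the 500-UMI limit for cells, and at most 460 in the other libraries, so free RNA values of NEJ634 may include cells.

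**Figure D1:**
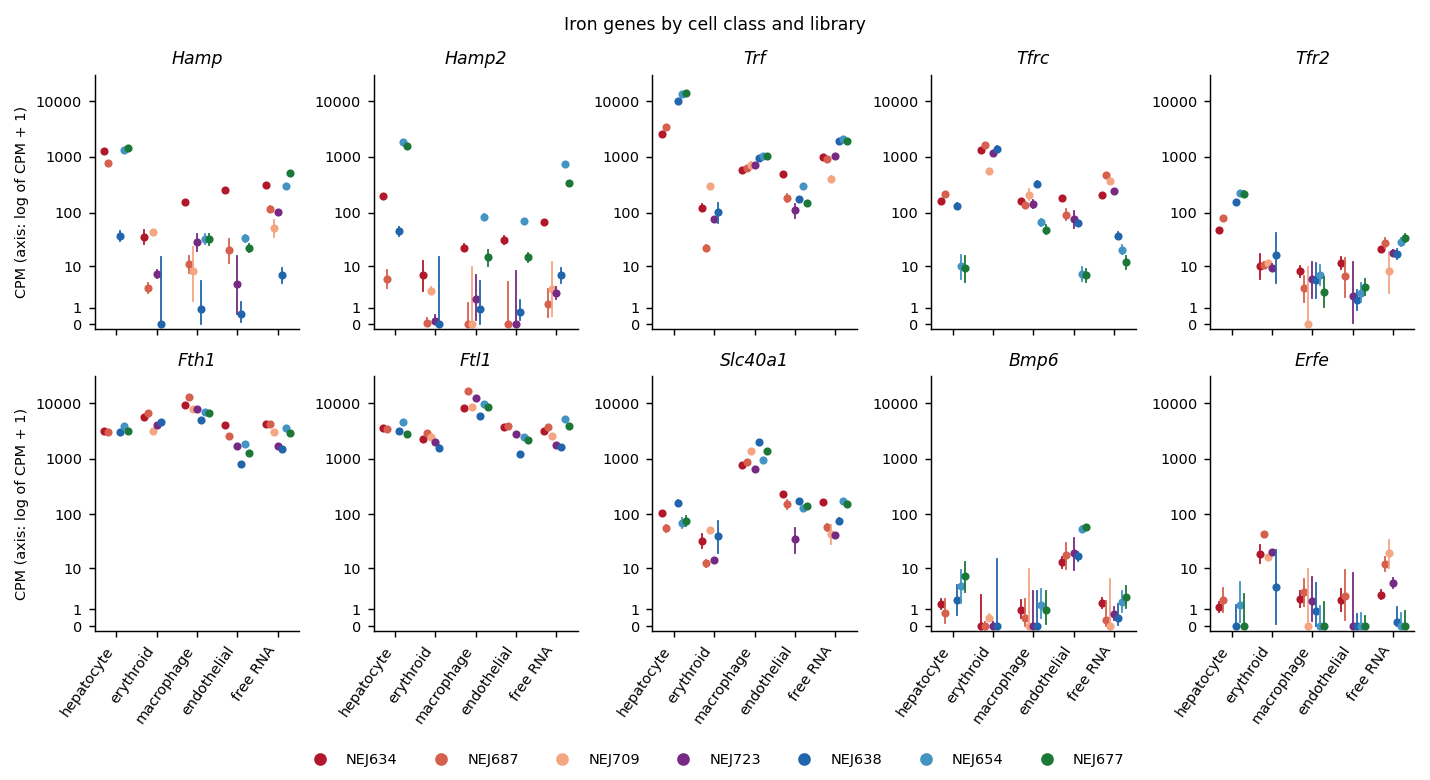
Levels of the 10 iron genes (CPM on a log axis of CPM + 1) in 4 cell classes and in free RNA, 1 point per library with its exact 95% Poisson interval. Hamp, Trf and Tfr2 stand highest in hepatocyte-lineage-like cells of all 5 libraries with that class, Tfrc in erythroid-like cells of all 5, and Ftl1 and Slc40a1 in macrophage-like cells of all 7.

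In every library that held it, the cell class known for a gene had that gene's highest level of the 4 classes. The lower bound of that class lay above the upper bounds of the others for Hamp, Trf and Tfr2 in 5 of 5 libraries with hepatocyte-lineage-like cells, for Tfrc in 5 of 5 with erythroid-like cells, and for Ftl1 and Slc40a1 in 7 of 7 with macrophage-like cells. Hamp2 met this in 4 of 5 libraries (not NEJ687), Erfe in 4 of 5 and Bmp6 in 5 of 6 (not NEJ638 for either) and Fth1 in 6 of 7 (not NEJ638). No share of all genes is given for this rule, so the counts do not show whether such separation is unusual. Read more strictly, as at least 2-fold above all other named cells in every library of the class and at least 10 CPM on 1 side, 3 of 7 members tested were called in hepatocyte-lineage-like cells (Hamp, Trf and Tfr2), against 10.8% of all genes tested there. In erythroid-like cells it was 1 of 5 (Tfrc) against 3.45% of genes. Most other settings gave a higher share of genes, from 6.19% with the free RNA profile taken off to 7.95% with the top-barcode rule alone. With doublets kept it was 2.81%. In macrophage-like cells it was 2 of 5 (Ftl1 and Slc40a1) against 5.42%. Of these, Ftl1 lost its call with each library clustered on its own and with the mean over cells. In endothelial-like cells it was 1 of 7 (Bmp6), or 14.3%, near the 12.1% of all genes. At least 2-fold lower were Slc40a1 in erythroid-like cells (1 of 5, against 26.1% of genes) and Hamp in endothelial-like cells (1 of 7, against 0.837%), and the lower share was 13.8% of genes in hepatocyte-lineage-like and 0.597% in macrophage-like cells, with 0 members in either. Members that failed the 10 CPM minimum are included in the values below.

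Hepatocyte-lineage-like cells of NEJ634 held Hamp at 1264 CPM, those of NEJ687 at 780.1 CPM and those of NEJ638 at 37.2 CPM, while NEJ654 reached 1313 CPM and NEJ677 1468 CPM. The order of libraries ran NEJ638, NEJ687, NEJ634, NEJ654, NEJ677, with a 39.4-fold span, and of the neighbors only NEJ634 and NEJ654 had overlapping intervals (1250 to 1278 and 1254 to 1374). Free RNA was estimated at 29.8% of this profile in NEJ634 and 33.65% in NEJ654, but 1.70% in NEJ677. With the free RNA profile taken off, these read 1665, 1658 and 1484 CPM, so NEJ677 was no longer highest. NEJ638 (41.25 CPM) and NEJ687 (820 CPM) stayed lowest. As a mean over cells NEJ654 read 758 CPM in place of 1313, which placed it between NEJ687 and NEJ634. NEJ638 stood apart with 97 Hamp UMIs in 322 cells (30.2 to 45.4 CPM), although its Alb, at 40769 CPM, was of the same order as in NEJ654 and NEJ677. Free RNA had the same low library: Hamp there was 6.55 CPM in NEJ638, against 52.5 to 510 CPM in the other 6. Among the 4 classes levels outside hepatocytes were lower, with the next class 5.02-fold below in NEJ634 and 38.7-fold to 45.4-fold below in the other 4. The next of the 4 in NEJ634 was endothelial-like, at 252 CPM, in a library whose free RNA held 316 CPM of Hamp and whose endothelial-like profile was estimated at 46.1% free RNA. With the free RNA profile taken off, endothelial-like cells there read 192 CPM, while hepatocyte-lineage-like cells read 1665 CPM. In all other named classes Hamp stood below the free RNA of the same library, the highest being 245 CPM in megakaryocyte-like cells of NEJ634. Clusters without a name did not all follow this. In cluster 3 of NEJ634 (674 cells, led by Mpo, Ctsg and Elane) Hamp stood at 612.7 CPM (577.8 to 649.2), above the 316 CPM of free RNA. In cluster 5 of that library (4652 cells) it stood at 221.1 CPM, below free RNA. The source of Hamp in cluster 3 was not tested.

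Hamp2, the second mouse hepcidin gene and a tandem copy of the first, split the libraries in a different way. It stood at 197 CPM in NEJ634, 5.56 in NEJ687 (23 UMIs, 3.53 to 8.35), 45.7 in NEJ638, 1872 in NEJ654 and 1576 in NEJ677, a 336-fold span with 0 of 4 neighboring pairs overlapping. NEJ687 alone set the low end of that span, and as means over cells it read 2.76 CPM and NEJ677 read 841 CPM. The 23 UMIs of NEJ687 came from 8 cells, and the intervals do not cover the spread between cells. The Hamp2 share of all hepcidin UMIs was 58.8% in NEJ654, 55.1% in NEJ638 and 51.8% in NEJ677, but 13.5% in NEJ634 and 0.708% in NEJ687 (exact Clopper-Pearson interval 0.449 to 1.06%). NEJ638, the library with least Hamp, kept a Hamp2 share (48.2 to 61.9%) that overlapped those of NEJ654 (57.3 to 60.2%) and NEJ677 (50.2 to 53.3%). Free RNA followed the same division, with Hamp2 shares of 71.1% in NEJ654, 50% in NEJ638 and 39.9% in NEJ677, and 17.3% in NEJ634, 5.88% in NEJ709, 2.48% in NEJ723 and 1.08% in NEJ687. This gave a reading for NEJ709 and NEJ723, which had too few hepatocyte-lineage-like cells for a value of their own. The NEJ709 share rests on 2 Hamp2 UMIs of 34 and its interval runs from 0.721 to 19.7%.

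**Figure D2:**
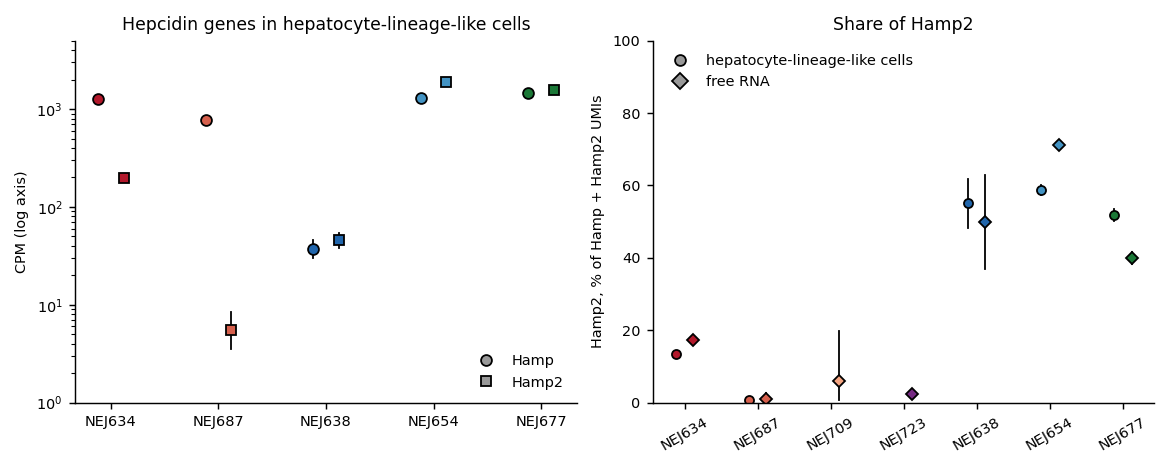
Left, Hamp (circles) and Hamp2 (squares) in hepatocyte-lineage-like cells (CPM, log axis) by library with exact 95% Poisson intervals. Right, Hamp2 as a percentage of Hamp and Hamp2 UMIs in those cells (circles) and in free RNA (diamonds) with exact 95% binomial intervals, above 39% in NEJ638, NEJ654 and NEJ677 and below 20% elsewhere.

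Within NEJ634 the pair also varied between clusters of the class. Cluster 6 (5213 cells) had a Hamp2 share of 11.6%, cluster 11 (173 cells, led by the acute phase genes Saa2 and Saa1) 6.31%, and cluster 10 (161 cells, led by Afp and Dlk1) 2.50%. Cluster 9 (185 cells, with G6pc, Apoa5 and Hamp2 itself among its leading genes) reached 44.2%, with Hamp at 1552 and Hamp2 at 1227 CPM. Of these 4 clusters Hamp was highest in the Saa cluster, at 2595 CPM, and lowest in cluster 10, at 995.8 CPM. Iron genes were left out when clusters were formed, but clusters were still chosen on the expression of the same cells, so these values are a description. In single cells the pair was unevenly spread. In NEJ654, 91 cells carried both genes, 16 Hamp alone and 79 Hamp2 alone, in NEJ677 these were 48, 39 and 8, and in NEJ634 1125, 3403 and 138. These counts were neither thinned nor corrected for free RNA, which held 736.6 CPM of Hamp2 in NEJ654. Free RNA was estimated at 33.65% of the class profile in NEJ654 and 1.70% in NEJ677, with median cell totals of 3274 and 7582 UMIs. The counts thus cannot show whether cells of these libraries use the pair differently. Outside NEJ638, the 10% of cells with the most Hamp UMIs held from 51.2% of Hamp UMIs in NEJ634 to 80.3% in NEJ654. In NEJ638, 82.3% of the 322 hepatocyte-lineage-like cells had neither gene, 5 carried both and 15 Hamp alone. The top 10% there held 100% of Hamp UMIs by necessity.

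With every cell thinned to 500 UMIs, a Hamp UMI was found in 36.7% of hepatocyte-lineage-like cells in NEJ634, 17.4% in NEJ687, 1.86% in NEJ638, 22.7% in NEJ654 and 32.2% in NEJ677. T/NK-like cells, which should lack Hamp, gave 0.962%, 0.298%, 0%, 2.01% and 1.90% in the same libraries, and the intervals of both classes were apart in all 5, most narrowly in NEJ638 (0.687 to 4.01% against 0 to 0.614%). Unthinned, the hepatocyte shares were 78.9%, 53.1%, 6.21%, 42.6% and 60.8%, against 21.2%, 1.79%, 0%, 6.04% and 7.85% of T/NK-like cells. Hamp2 at 500 UMIs gave 5.91%, 0%, 3.11%, 40.2% and 16.8% of hepatocyte-lineage-like cells in the same order.

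**Figure D3:**
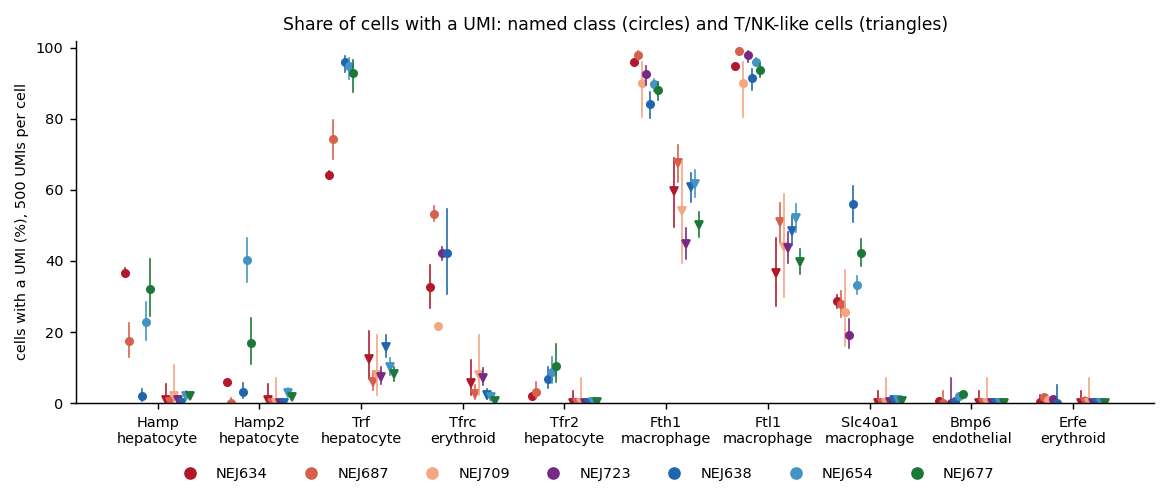
Share of cells (%) with at least 1 UMI of each iron gene after thinning to 500 UMIs per cell, in the gene's named class (circles) and in T/NK-like cells (triangles), 1 point per library with exact 95% binomial intervals. Trf and Slc40a1 stand far above T/NK-like cells, Tfrc stands above them (least so in NEJ709, 21.8% against 8%), Fth1 and Ftl1 are found in 36.5% or more of T/NK-like cells as well, and Bmp6 and Erfe are below 3% in their own class.

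Both hepcidin genes lie on chromosome 7 on the minus strand, Hamp at chr7:30942368-30944032 and Hamp2 at chr7:30922372-30924681 of GRCm38. Transcripts of near-copies can share reads, and how the counting divided any such reads between Hamp and Hamp2 was not tested.

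The ligands that act on Hamp were read in their source cells. Bmp6, a BMP ligand of liver sinusoidal endothelium, stood at 13.04 CPM in endothelial-like cells of NEJ634, 17.7 in NEJ687, 19.6 in NEJ723, 16.9 in NEJ638, 54.7 in NEJ654 and 57.99 in NEJ677. NEJ654 and NEJ677 were high with overlapping intervals, the other 4 overlapped each other along the order, and the 2 sets were apart (48.5 to 61.4 CPM in NEJ654, 8.98 to 37.3 in NEJ723). Cluster 19, which held most of the cells in NEJ687, NEJ723, NEJ654 and NEJ677, gave 21.2, 10.4, 60.6 and 59.8 CPM for them and 20.4 CPM for the 37 cells of NEJ634 in it. With the free RNA profile taken off, NEJ634 read 22.3 CPM for the whole class. Hepatocyte-lineage-like cells had 0.726 to 6.93 CPM and erythroid-like cells 0 UMIs in 4 libraries and 0.418 CPM in NEJ709, and 500-UMI shares were at most 2.44% of endothelial-like cells. Bmp2, a second endothelial BMP ligand and no member, was more abundant, at 204, 159, 216, 719, 504 and 781 CPM in NEJ634, NEJ687, NEJ723, NEJ638, NEJ654 and NEJ677. It was high in NEJ638 too, where Bmp6 was not.

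Erfe, the erythroblast hormone that lowers hepcidin, stood at 19.02 CPM in erythroid-like cells of NEJ634, 44.7 in NEJ687, 16.1 in NEJ709 and 20.5 in NEJ723. NEJ638 had 1 UMI in 71 cells (4.06 CPM, 0.103 to 22.6). NEJ687 stood above the other 4, which overlapped their neighbors in order. With hemoglobin and mitochondrial UMIs left out of the total Erfe read 30.5, 73.96, 26.6, 36.8 and 8.47 CPM in NEJ634, NEJ687, NEJ709, NEJ723 and NEJ638. In the other 3 classes the highest value was 3.05 CPM. NEJ654 and NEJ677, with 2 and 0 erythroid-like cells, had 0 Erfe UMIs in macrophage-like and endothelial-like cells and in free RNA, where the upper bounds were 0.698 and 0.860 CPM, and 2 and 0 UMIs in hepatocyte-lineage-like cells. Free RNA held 19.7 CPM in NEJ709 and 12.1 in NEJ687.

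The place of NEJ709 in the erythroid order turned on cluster 22. There Erfe was 14.6 CPM and Tfrc 443.5 CPM, next to 19.7 and 374 CPM in free RNA of that library. The 104 cells of NEJ709 in cluster 18 had Erfe at 54.8 and Tfrc at 2466 CPM, and the 135 cells in cluster 28 had 27.3 and 2068 CPM, which for Tfrc was the highest of the 5 libraries in both clusters. Under 6 other ways of calling or clustering cells the class of NEJ709 read 38.8 to 41.5 CPM for Erfe in place of 16.1, and 2177 to 2273 CPM for Tfrc in place of 548.8. With the free RNA profile taken off and the class left as it was, Erfe read 5.51 and Tfrc 1022 CPM. In NEJ634, with the library clustered on its own, Tfrc read 674 CPM in place of 1328.

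Trf, the plasma iron carrier, was the most abundant member in hepatocytes of the 3 libraries of cluster 15. It stood at 10050 CPM in NEJ638, 13237 in NEJ654 and 14197 in NEJ677, and at 2622 in NEJ634 and 3456 in NEJ687, with 0 of 4 neighboring pairs overlapping. The top of this order depended on free RNA: with its profile taken off, Trf read 17152 CPM in NEJ654 and 14408 CPM in NEJ677. Unlike Hamp, Trf was not low in NEJ638. Macrophage-like cells also carried it, at 575 to 1057 CPM over 7 libraries (median 725), against 70.9 to 343 CPM in T/NK-like cells of the same libraries and 407 to 2064 CPM in free RNA. With the free RNA profile taken off, the macrophage-like level was 349 to 963 CPM, and the erythroid-like level 0 to 15.1 CPM.

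Tfr2, the receptor through which hepatocytes read transferrin-bound iron, stood at 47.4 CPM in NEJ634, 79.1 in NEJ687, 155 in NEJ638, 222 in NEJ654 and 215.5 in NEJ677. Its order was close to that of Trf, with NEJ677 and NEJ654 overlapping at the top and NEJ634 lowest. Tfr2 is also known in erythroid precursors, and there it had 9.29 to 16.3 CPM, with all 4 neighboring pairs overlapping, against 0 to 2.81 CPM in T/NK-like cells. Free RNA held more Tfr2 than erythroid-like cells in 4 of those 5 libraries, at 17.3 to 27.8 CPM, and less in NEJ709, at 8.20 CPM. Within the erythroid class it was 12.4 to 25.7 CPM in cluster 18, 11.7 and 20.8 CPM in cluster 22 and 1.76 to 7.74 CPM in cluster 28.

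Tfrc, the receptor that brings transferrin iron into dividing and hemoglobin-making cells, stood highest in erythroid-like cells of every library that had them. Its level there was 1328 CPM in NEJ634, 1611 in NEJ687, 549 in NEJ709, 1169 in NEJ723 and 1410 in NEJ638, and NEJ638 overlapped NEJ634. The span was 2.94-fold, with its low end set by NEJ709 alone, whose value turned on how cells were called and clustered. With hemoglobin and mitochondrial UMIs left out of the total the levels read 2129, 2665, 906, 2104 and 2937 CPM in the same order of libraries, which put NEJ638 highest in place of NEJ687. Erythroid-like cells exceeded the next of the 4 classes 2.61-fold in NEJ709 and 4.25-fold to 8.07-fold in the other 4. Outside them the libraries differed more. Hepatocyte-lineage-like cells had 158 CPM in NEJ634, 219 in NEJ687 and 132 in NEJ638, but 9.94 (14 UMIs) in NEJ654 and 9.24 (12 UMIs) in NEJ677, a 23.7-fold span. Endothelial-like cells gave the same 2 low libraries, with 7.10 and 6.59 CPM in NEJ654 and NEJ677 and 65.1 to 184 CPM in the other 4. Macrophage-like cells of these 2 had 66.4 and 48.98 CPM, against 136 to 331 CPM in the other 5. Free RNA moved with these values, at 20.8 and 11.9 CPM in NEJ654 and NEJ677, 37.8 in NEJ638 and 211 to 475 in the other 4, and with its profile taken off hepatocyte-lineage-like cells read 136 CPM in NEJ634, 203 in NEJ687, 143 in NEJ638, 4.03 in NEJ654 and 9.19 in NEJ677. Endothelial-like cells then read 158 CPM in NEJ634, 54.5 in NEJ723 and 67.3 in NEJ638, but 11.3 in NEJ687, close to 5.36 in NEJ654 and 6.27 in NEJ677. NEJ638 was the library where hepatocytes (132 CPM), macrophages (331 CPM) and endothelium (65.1 CPM) all exceeded free RNA in Tfrc. T/NK-like cells there exceeded it as well, at 55.6 CPM. In NEJ654 and NEJ677 macrophage-like and T/NK-like cells exceeded free RNA too.

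The order of Tfrc and Erfe through red cell formation was read across 5 hemoglobin-rich clusters. Cluster 8 (80 cells, 45.3% hemoglobin UMIs) was not among them, since its markers named it T/NK-like, and it stayed in that class. Of the erythroid-like ones, cluster 18 had 25.0 to 38.7% hemoglobin UMIs by library, cluster 22 had 21.03 and 27.5% and cluster 28 had 51.2 to 58.6%, while clusters 30 and 16, which stayed unnamed, had 76.2 to 85.9% and 72.9 to 91.8%. Tfrc was 1358 to 2466 CPM in cluster 18, 1035 to 2068 in cluster 28, 0 to 190 in cluster 30 and 1.99 to 57.6 in cluster 16. Cluster 22 lay apart from this order, at 327 CPM in NEJ634 and 443.5 CPM in NEJ709, below cluster 18 although its hemoglobin share was close. Erfe was 8.56 to 54.8 CPM in cluster 18, 0 to 36.1 in cluster 28, at most 1.83 in cluster 30 and 0 UMIs in cluster 16 in all 5 libraries. Hemoglobin takes most of the total in the last 2 clusters, so the same values were set against all other UMIs. Tfrc then read 1810 to 3446, 2364 to 4992, 0 to 1102 and 18.6 to 334 per 1000000 UMIs in clusters 18, 28, 30 and 16, so the maximum moved to cluster 28 and the drop after it stayed. Erfe on that scale read 13.95 to 76.5 in cluster 18, 0 to 79.95 in cluster 28, at most 7.68 in cluster 30 and 0 in cluster 16, so clusters 18 and 28 were not ordered. The 0 in cluster 30 came from the 31 cells of NEJ638. Slc25a37, the mitochondrial iron importer of erythroblasts and no member, was 871 to 1634 CPM in cluster 18, 1019 to 1679 in cluster 28 and 103 to 567 in the last 2. Against UMIs other than hemoglobin it read 1162 to 2664, 2326 to 3681, 995 to 3799 and 567 to 3590 in clusters 18, 28, 30 and 16, which overlapped, so its drop held only on the CPM scale.

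**Figure D4:**
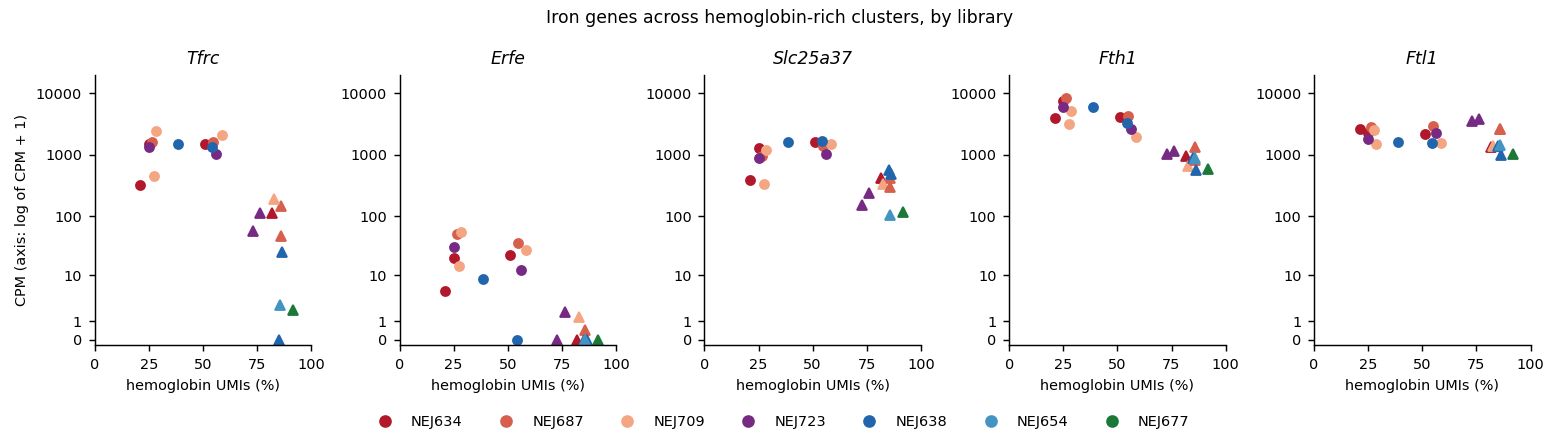
Levels (CPM on a log axis of CPM + 1) of Tfrc, Erfe, Slc25a37, Fth1 and Ftl1 against the share of hemoglobin UMIs (%) in hemoglobin-rich clusters, 1 point per cluster and library with at least 20 cells. Circles are the erythroid-like clusters 18, 22 and 28 and triangles the unnamed clusters 30 and 16, with Tfrc at 327 to 2466 CPM in the circles and 0 to 190 CPM in the triangles.

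The ferritin chains were the most abundant members outside hepatocytes. Fth1, the ferroxidase heavy chain, stood in macrophage-like cells at 9414 CPM in NEJ634, 12657 in NEJ687, 7872 in NEJ709, 7833 in NEJ723, 4914 in NEJ638, 6877 in NEJ654 and 6510 in NEJ677. It was the least selective member, 1.08-fold to 2.47-fold above the next of the 4 classes. In NEJ638 erythroid-like cells came close, at 4535 CPM, with overlapping intervals. Among all named classes, neutrophil-like or monocyte-like cells were highest in 6 of 7 libraries, for example 15799 CPM in neutrophil-like cells of NEJ638, and in NEJ687 their interval overlapped that of macrophage-like cells. Plasmacytoid dendritic-like cells were also above macrophage-like cells in NEJ638, NEJ654 and NEJ677, at 9625, 10168 and 8562 CPM. Hepatocyte-lineage-like cells were even between libraries, from 3008 to 3864 CPM, a 1.29-fold span. Ftl1, the light chain, stood in macrophage-like cells at 8186, 16592, 8429, 12570, 5948, 9631 and 8471 CPM in the same order of libraries, 1.89-fold to 4.51-fold above the next of the 4. NEJ687 was highest and NEJ638 lowest for both chains. In NEJ638 and NEJ677 neutrophil-like cells, at 8885 and 8721 CPM, stood above macrophage-like cells in Ftl1, with overlapping intervals in NEJ677. The NEJ709 values read 4079 CPM (Fth1) and 3381 CPM (Ftl1) when that library was clustered on its own. Ftl1 has processed copies in the genome, and reads shared with them were not told apart.

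The chains parted in red cells. From cluster 18 to 28 to 30, Fth1 was 5175 to 8423, 1956 to 4293 and 665 to 1323 CPM, while Ftl1 was 1480 to 2859, 1535 to 2874 and 1323 to 3860 CPM. Against all UMIs other than hemoglobin, Ftl1 was 2068 to 3884, 3410 to 6357 and 7275 to 18539 per 1000000 UMIs and Fth1 7230 to 11441, 4722 to 9496 and 3847 to 9387, so on that scale Ftl1 was higher in the last of these clusters and Fth1 overlapped between neighbors.

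Slc40a1, the ferroportin gene and the target of hepcidin, marked macrophage-like cells in every library. It stood at 764 CPM in NEJ634, 867 in NEJ687, 1355 in NEJ709, 653 in NEJ723, 1968 in NEJ638, 951 in NEJ654 and 1362 in NEJ677. NEJ638 was highest, outside the interval of the next library (1887 to 2052 against 1313 to 1412 CPM). It also had least Hamp, but other libraries did not keep this pairing. NEJ677, with Hamp at 1468 CPM, was next in Slc40a1, and NEJ687, with Hamp at 780.1 CPM, had less Slc40a1. A link between the levels of these genes was not tested. Macrophage-like cells exceeded the next of the 4 classes 3.23-fold to 25.9-fold, and 19.3 to 56.1% of them had a Slc40a1 UMI at 500 UMIs per cell, against 0 to 0.929% of T/NK-like cells. Endothelial-like cells had 34.9 to 237 CPM, hepatocyte-lineage-like cells had 55.9 to 163 CPM and erythroid-like cells 12.3 to 52.4 CPM. Outside the 4 classes, neutrophil-like cells had 60.8 to 279.9 CPM over 7 libraries and monocyte-like cells of NEJ723 had 223 CPM. The NEJ709 value rests on 70 cells, and read 170.5 CPM when that library was clustered on its own.

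Fth1, Ftl1, Slc40a1 and Tfrc share a further feature that their choice did not use, the iron-responsive element, a hairpin bound by iron regulatory proteins that blocks translation from the 5′ UTR and protects the transcript in the 3′ UTR when iron is low. The elements are shown because storage, export and uptake genes all carry them. A pattern of a bulged C, a 5-base upper stem and a CAGTGN loop, where N was A, C or T, was searched in GENCODE M21 UTRs on the transcribed strand. Capitals mark the bulged C and the loop.
Fth1 5′ UTR, chr19:9982733-9982759, plus strand: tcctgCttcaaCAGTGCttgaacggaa
Ftl1 5′ UTR, chr7:45459780-45459806, minus strand: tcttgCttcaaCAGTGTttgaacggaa
Slc40a1 5′ UTR, chr1:45925466-45925492, minus strand: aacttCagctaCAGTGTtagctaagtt
Tfrc 3′ UTR, chr16:32631220-32631246, plus strand: attatCggaagCAGTGCcttccataat
Tfrc held 4 such elements in its 3′ UTR, the first of them shown, and each of the other 3 genes held 1 in its 5′ UTR. Of 21899 genes with UTRs, 21 (0.0959%) matched in the 5′ UTR and 98 (0.448%) in the 3′ UTR. RNA levels do not show translation, so for Fth1, Ftl1 and Slc40a1 the counts say nothing of protein made. In hepatocyte-lineage-like cells the Tfrc transcript spanned 23.7-fold between libraries, where free RNA moved with it, against 1.29-fold for Fth1, 1.604-fold for Ftl1 and 2.91-fold for Slc40a1, which with the free RNA profile taken off ran from 17.2 CPM in NEJ654 to 171 CPM in NEJ638.

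Around the members stood a list of 58 iron genes in 10 roles, the members included. At least 2-fold higher in every library were 11 of 44 tested in hepatocyte-lineage-like cells (against 10.8% of all genes), 4 of 37 in erythroid-like cells (3.45%), 8 of 38 in macrophage-like cells (5.42%) and 7 of 44 in endothelial-like cells (12.1%). The endothelial share, 15.9%, was near that of all genes. With each library clustered on its own the hepatocyte-lineage-like count was 5 of 35, against 6.1% of all genes. The erythroid-like share of all genes also depended on the setting, and most other settings gave 6.19 to 7.95%. It was 7.95% with the top-barcode rule alone (4 of 38 of the list) and 7.35% with each library clustered on its own (4 of 33). With doublets kept it was 2.81% (4 of 38). At least 2-fold lower were 4 of 44 (13.8%), 16 of 37 (26.1%), 1 of 38 (0.597%) and 4 of 44 (0.837%) in the same order, each beside the share of all genes. By role, hepatocyte-lineage-like cells held the hepcidin receptors and coreceptors Tfr2, Hjv, Bmpr1a and Tmprss6 (4 of 7 tested) and the carriers and uptake genes Trf, Steap3 and Slc39a14 (3 of 6). Of the receptors and coreceptors, others were called elsewhere, namely Acvr1 and Bmpr2 in endothelial-like cells (2 of 5) and Hfe in macrophage-like cells (1 of 3). Endothelial-like cells, whose count was near the share of all genes, held both tested ligands, Bmp6 and Bmp2, and the signal genes Smad1 and Smad6 (2 of 7). Macrophage-like cells held 5 of 9 tested genes of heme and hemoglobin recycling, namely Cd163, Lrp1, Hmox1, Blvra and Spic, and erythroid-like cells the mitochondrial iron genes Slc25a37 and Abcb10 (2 of 6).

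**Figure D5:**
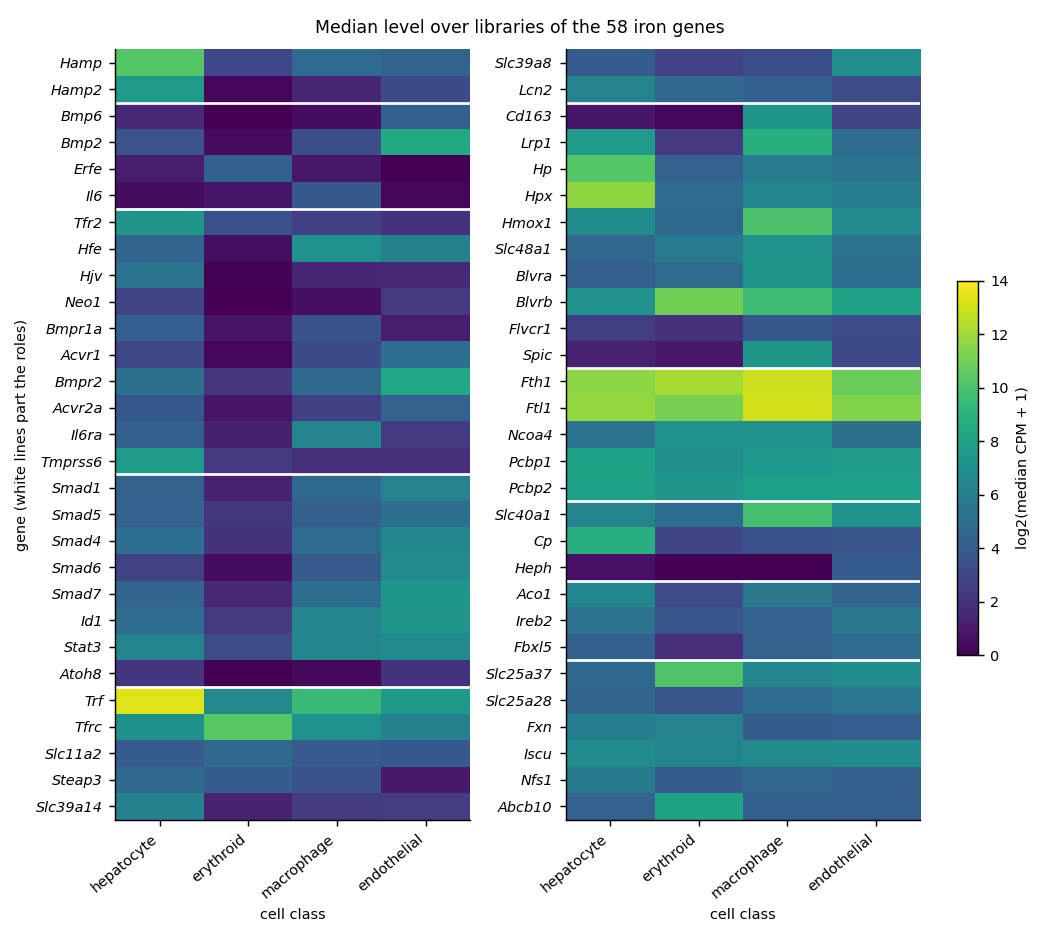
Median over libraries of the level of each of the 58 iron genes (log2 of median CPM + 1, color scale) in 4 cell classes, with white lines between the roles. Trf, Hpx and Hp are bright in hepatocyte-lineage-like cells, Tfrc and Slc25a37 in erythroid-like cells, Slc40a1 and Hmox1 in macrophage-like cells and Bmp2 in endothelial-like cells, while Fth1 and Ftl1 are bright in all 4.

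Genes that sense or relay iron in hepatocytes did not all keep the library order of Tfr2. Hjv (hemojuvelin, the BMP coreceptor) stood at 40.8, 38.7, 22.7, 39.8 and 43.1 CPM in NEJ634, NEJ687, NEJ638, NEJ654 and NEJ677. Tmprss6, the protease that cleaves hemojuvelin and so lowers hepcidin, stood at 60.8, 56.9, 206, 314 and 356 CPM. NEJ638 had the least Hjv and an intermediate Tmprss6 level. Among secreted scavengers, Hpx (hemopexin, which binds free heme) was 879.9 to 4919 CPM, Hp (haptoglobin, which binds free hemoglobin) 828 to 2414 CPM and Cp (ceruloplasmin, the plasma ferroxidase) 163 to 957.5 CPM, with NEJ634 or NEJ687 lowest for each and NEJ677 highest. Slc39a14, a transporter of non-transferrin iron, was 41.9 to 127 CPM and highest in NEJ638.

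Macrophage-like cells carried the recycling genes at library-specific levels. Cd163, the hemoglobin-haptoglobin receptor, stood at 38.5, 71.2, 171 and 61.9 CPM in NEJ634, NEJ687, NEJ709 and NEJ723 and at 239, 272 and 312 CPM in NEJ638, NEJ654 and NEJ677. Spic, a transcription factor of iron-recycling macrophages, ranged from 106 CPM in NEJ654 to 305 CPM in NEJ709. Hmox1, which opens the heme ring and frees its iron, was 878, 1453, 1573 and 1083 CPM in the first 4 of these and 3163, 976 and 649 CPM in the other 3. NEJ638 was highest in both Hmox1 and Slc40a1, while NEJ677, lowest in Hmox1, was next in Slc40a1 with an interval overlapping that of NEJ709. Heph, a membrane ferroxidase known from the gut, was low but highest in endothelial-like cells, at 8.98 to 27.3 CPM.

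The genes whose pattern was most like 4 members were found by Pearson's r of log2(CPM + 10) over 65 pools of library and class, among 8898 genes, and pools of 1 library share its free RNA and depth. Hamp was nearest Slc25a47 (r = 0.878), with Prodh2, Igfbp2 and Abcb11 also among its nearest 5. Erfe was nearest Trib3 (r = 0.915), Gm20161, Gm867, Icam4 and Plek2. Slc40a1 was nearest Il18bp (r = 0.871), Ctsd, Wdfy3, Dmpk and Slc45a3, and Bmp6 was nearest Pcdh12 (r = 0.882), Adgrl4, Fam171a1, Flrt1 and Rgs7bp.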

How the data were processed

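Processed matrices of 7 mouse liver libraries were used. The authors deposited raw UMI counts per gene and barcode for all barcodes, unfiltered, made with Cell Ranger (version 4 in the matrix headers, 6.0 in the submitters' processing notes; the study's methods name the counting of introns, but whether these matrices include them is not settled). The genome build is not given in the sources used here, so coordinates come only from GENCODE M21 on GRCm38, in which 32158 of 32285 features were found. The 10 members, the list of 58 iron genes and the marker lists were chosen with earlier results of these data known, and the limits for naming clusters were set after clusters had been seen.

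Barcodes were called as cells by a test against the free RNA profile (10000 draws, false discovery rate 0.01, at most 20000 barcodes tested, a limit reached in NEJ634, NEJ709 and NEJ723) or by the rule on the 3000 top barcodes, and kept where they held more than 500 UMIs, of which no more than 20% were mitochondrial, the limits of the study. Barcodes called in 2 or more libraries and cells with high doublet scores (0.8% per 1000 cells) were removed, from 406 doublets in NEJ638 to 3294 in NEJ634. Cells were clustered in scanpy 1.11.5 (2000 variable genes without iron genes, 40 components, 15 neighbors, Leiden resolution 1) and a cluster was named from markers when their mean log2 difference reached 1 and led by 0.5, with at least 3 markers and over 50% of them 2-fold higher. UMIs were summed per library and class of at least 20 cells. Since labels form no groups, no test was run. Intervals are exact Poisson (CPM) and Clopper-Pearson (shares) at 95%, for counting error only. The named genes were the members, up to 12 of the list with the largest median fold between classes, and the 5 genes most like each of 4 members, while Hmox1 and Slc25a37 were chosen after their values were seen. A few items that these rules name are not reported here. The 2-fold counts, the Poisson intervals and the search for iron-responsive elements were tested on simulated data. Doublet scores used an exact neighbor search, chosen after an approximate one gave scores that varied between runs, enough to change whether cluster 22 of NEJ709 reached a name. Alternatives covered cell calling, quality limits, doublets, shared barcodes, clustering, totals, cell weighting, free RNA, class size, the CPM minimum and thinning.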

Additional observations from a re-analysis of the deposited data

Results flagged for a closer look

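Clusters without a class name, left out of the comparisons by class, carried iron genes above every named class of their main library, beyond the counting intervals. In cluster 14 of NEJ723 (2137 cells, led by Cldn7, Bex1 and Spink1, with Epcam and Cldn6 among its leading genes) Hamp stood at 77.3 CPM (72.6 to 82.2), Trf at 1442 CPM and Tfr2 at 18.1 CPM, against 29.1, 712 and 9.29 CPM in the highest named class. Free RNA of that library held 101.8 CPM of Hamp, 1040 CPM of Trf and 18.0 CPM of Tfr2. In cluster 32 of NEJ677 (769 cells, led by Fabp1, Akr1c6 and Rida) Ftl1 stood at 9849 CPM (9718 to 9981), against 8721 CPM in neutrophil-like cells and 3877 CPM in free RNA.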

How the results depend on the processing

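Of 110 recomputed counts of libraries in which a member was highest in its class, 109 stayed within 1.5-fold of the count reported. The exception was Bmp6, highest in endothelial-like cells in 2 of 3 libraries when cells were called by the top-barcode rule alone, against 5 of 6, with fewer libraries holding the class and NEJ638 again the one missed. The 110 counts include a minimum of 50 cells, which dropped no class pool and left 230 of 230 levels the same, so it could move no count. That setting is also part of the 624 levels below. Such counts also hid losses of single libraries. With each library clustered on its own, Hamp and Tfr2 were highest in 6 of 7 (not NEJ709), Hamp2 in 4 of 7 and Erfe in 3 of 5, where NEJ709 was lost, as it was with the free RNA profile taken off. With every barcode over 500 UMIs, Bmp6 was highest in 4 of 6 and Erfe in 3 of 5, both without NEJ723 and NEJ638, and at resolution 2 Hamp2 in 4 of 6. With each library clustered on its own, genes of the iron list at least 2-fold higher in hepatocyte-lineage-like cells numbered 5 of 35 (against 6.1% of all genes) in place of 11 of 44 (against 10.8%), and members higher in macrophage-like cells 1 in place of 2 (Ftl1 was lost, against 3.67% of all genes), and again 1, without Ftl1, with the mean over cells. In erythroid-like cells members numbered 2 in place of 1 with no minimum of 10 CPM, a setting whose share of all genes is not given here. With hemoglobin and mitochondrial UMIs left out of the total, genes of the iron list there numbered 7 of 38 (against 6.97% of all genes). This was in place of 4 of 37 (against 3.45%). Shares of hepatocyte-lineage-like cells with a Hamp UMI followed the number of UMIs read per cell: without thinning and at 1000 UMIs they were 78.9% and 53.8% in NEJ634, 53.1% and 30.9% in NEJ687, 6.21% and 3.70% in NEJ638, 42.6% and 30.5% in NEJ654, and 60.8% and 39.4% in NEJ677. Of 624 recomputed levels of members in their own class, 33 moved by over 1.5-fold, for example Hamp of NEJ654 to 758 CPM and Hamp2 of NEJ677 to 841 CPM as means over cells (the cause was not tested). In NEJ709 the Tfrc and Erfe levels of erythroid-like cells depended on whether cluster 22 took that name. No paired analysis was possible because the labels give no groups and no replicate numbers. With single libraries left out, Erfe was highest in 3 of 4 without NEJ709 and in 3 of 4 without NEJ634, Tfrc in 4 of 4 each time, and Hamp in 4 of 4 without NEJ634. Low counts limit Erfe in NEJ638 and Hamp2 in NEJ687, NEJ709 and NEJ723.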

Other observations

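Cluster 32, which no class name covers, was led by liver enzyme genes and held the hepcidin pair in NEJ677. There Hamp stood at 1290 CPM (1243 to 1338) and Hamp2 at 516 CPM (486 to 547), beside 1468 and 1576 CPM in the named hepatocyte-lineage-like cells of that library. Ferritin was higher than in those cells (Fth1 7784 against 3211 CPM, Ftl1 9849 against 2839 CPM) and the iron carrier and its sensor were lower (Trf 1298 against 14197 CPM, Tfr2 7.71 against 215.5 CPM). Free RNA of NEJ677 held Hamp at 510, Fth1 at 2859 and Trf at 1935 CPM, and its part in these values was not tested.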
